A study of Piriqueta cistoides subsp. caroliniana with 18 samples.

Results

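The results concern 59 probes of a soybean cDNA array of 9600 probes that gave a positive drought log ratio in leaves of Piriqueta on every array where drought and watering met, and that carry no gene name. They were chosen by their measured values. A probe was kept if all 6 of its values, drought minus well-watered, were present and above 0 with a mean of 0.30 or more, if the supplied gene table had no entry for it, and if its number lay outside a stretch of 519 numbers, between Gm05588 and CHLH Gm06139, that is crowded with probes of this kind. Of the 9600 probes, 7505 had all 6 values, and 135 of these (1.8%) met both criteria on the values. Inside the stretch lay 72 of the 135 and outside it 63, and 4 of the 63 had a gene entry, which leaves the 59. They make up 0.862% of the 6847 unnamed probes outside the stretch with 6 values, against 29.8% of the 208 inside it. The mirror criteria on the negative side were met by 35 probes (0.466%).

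Piriqueta is a genus of small herbs whose morphotypes caroliniana and viridis meet and form hybrids. Plants short of water close their stomata, lose carbon gain and adjust the transcripts of photosynthesis, of protective proteins and of the metabolism of sugars and phenolic compounds, and leaf responses of this kind are what a drought contrast measures. The probes carry soybean sequences, so a Piriqueta transcript is measured only as far as it pairs with the soybean sequence, and a probe can pair with several related transcripts. What the 59 transcripts encode is not given by the sources used here, and no probe sequence was used, so probes are named by their array identifier. Several probes may hold pieces of 1 transcript, so they are not counted as 59 genes.

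The 18 plants fell into 6 groups of 3, caroliniana, hybrid and viridis, each well-watered or taken through 4 cycles of drought in 36 days. All were raised in a greenhouse from cuttings in sand, near 35 °C by day and 27 °C by night with days of 12 h, and leaf RNA was taken. Plants are written with the morphotype letter (C, H or V), the plant number and D for drought or W for well-watered. Each plant was hybridised on 2 arrays, and the 18 arrays form 1 closed loop. Nothing says that the plants of a group came from separate parents, so p-values measure only the spread between these plants and their arrays. Only ratios were used, so the labelled leaf tissue could not be checked against markers such as CAB3 or PSAD, and less RNA per cell and fewer cells of a type cannot be told apart.

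The values are log ratios whose base (2 or e) and direction the sources used here do not state. They were read as Cy5 over Cy3, and on the opposite reading every sign below turns. Of the 18 arrays, 6 set drought against watering within a morphotype, and these chose the probes. The other 12 pair plants of the same treatment (6 arrays of drought plants, 6 of well-watered plants) and were not used in the choice. H2W stood apart from H1W and H3W among these probes. Because H2W met V3W on only 1 of those 12 arrays, a plant that differs and an array that runs the other way cannot be told apart on them. H2W was also on H1D/H2W, an array of the rule. There the drought values exceeded the mean of both parents by a median of 0.013, against 0.788 on H2D/H1W. Whether H2W itself differs was not tested. Results that rest on the array of H2W and V3W are given with and without it. The array of H2D and V3D carries the word BAD in its title, with no reason given.

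The largest drought values belonged to Gm13870, with 2.21 on the array C1D/C2W, 3.26 on C2D/C1W, 3.51 on H1D/H2W, 5.58 on H2D/H1W, 5.83 on V1D/V2W and 3.92 on V2D/V1W. Its mean was 4.05 ± 1.40 (SD, n = 6 arrays), which is 16.6-fold for logarithms of base 2 and 57.6-fold for natural logarithms. Both caroliniana arrays gave its lowest values. Gm12431 had 1.75, 2.78, 2.86, 5.12, 4.60 and 3.45 in the same order of arrays, with a mean of 3.43 ± 1.25 (SD, n = 6). Gm16536 had 3.20, 2.99, 2.31, 4.16, 3.93 and 2.54, with a mean of 3.19 ± 0.74 (SD, n = 6). Gm13870 and Gm12431 shared their order of arrays in part, with the highest values on H2D/H1W and V1D/V2W and the lowest on C1D/C2W, whereas Gm16536 was lowest on H1D/H2W.

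The next members were closer to each other. Gm18046 had 2.13, 2.44, 2.35, 4.38, 2.96 and 2.47 (mean 2.79 ± 0.82, SD, n = 6). Gm08061 had 1.69, 2.03, 1.95, 3.84, 3.10 and 2.26 (mean 2.48 ± 0.82, SD, n = 6). Both were highest on H2D/H1W and lowest on C1D/C2W. Gm05384 had 1.55, 2.03, 2.73, 3.70, 2.45 and 1.92 (mean 2.40 ± 0.76, SD, n = 6). The remaining members among the 10 largest were Gm18070 with a mean of 2.15, Gm00813 with 2.13, Gm13966 with 1.90 and Gm15635 with 1.86. All of these are descriptions of the values that chose the probes, and no test was made on them.

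Across the 59 probes the mean of the 6 values ran from 0.301 to 4.05 with a median of 0.631. A mean of 2 or more was reached by 8 probes, 10 lay from 1 to 2, 23 from 0.5 to 1 and 18 from 0.3 to 0.5. The spread over the arrays was wider at larger means. Since all 6 values had to be above 0, the rule limits the SD of probes with small means. Among the 18 probes with a mean of 1 or more the SD ran from 0.204 to 1.40 (median 0.671), and among the 41 others from 0.127 to 0.545 (median 0.331). Gm12705 had the smallest SD (mean 0.77 ± 0.13, SD, n = 6), with values from 0.59 to 0.97. Gm07172 came next (mean 0.49 ± 0.16, SD, n = 6). Every value of 28 probes was above 0.30, while 12 probes had a lowest value under 0.10. The smallest single value was 0.017, for Gm08328 on H1D/H2W.

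At the threshold, Gm05047 (mean 0.301), Gm07076 (0.302) and Gm07810 (0.308) lay just inside. Just outside lay Gm09695 (0.296), Gm10006 (0.287) and Gm07328 (0.273), which met every other criterion. In all, 69 unnamed probes outside the stretch had 6 values above 0 with a mean under 0.30. A further 3 had only 5 values, all positive with a mean of 0.30 or more, and were not members.

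**Figure D1:**
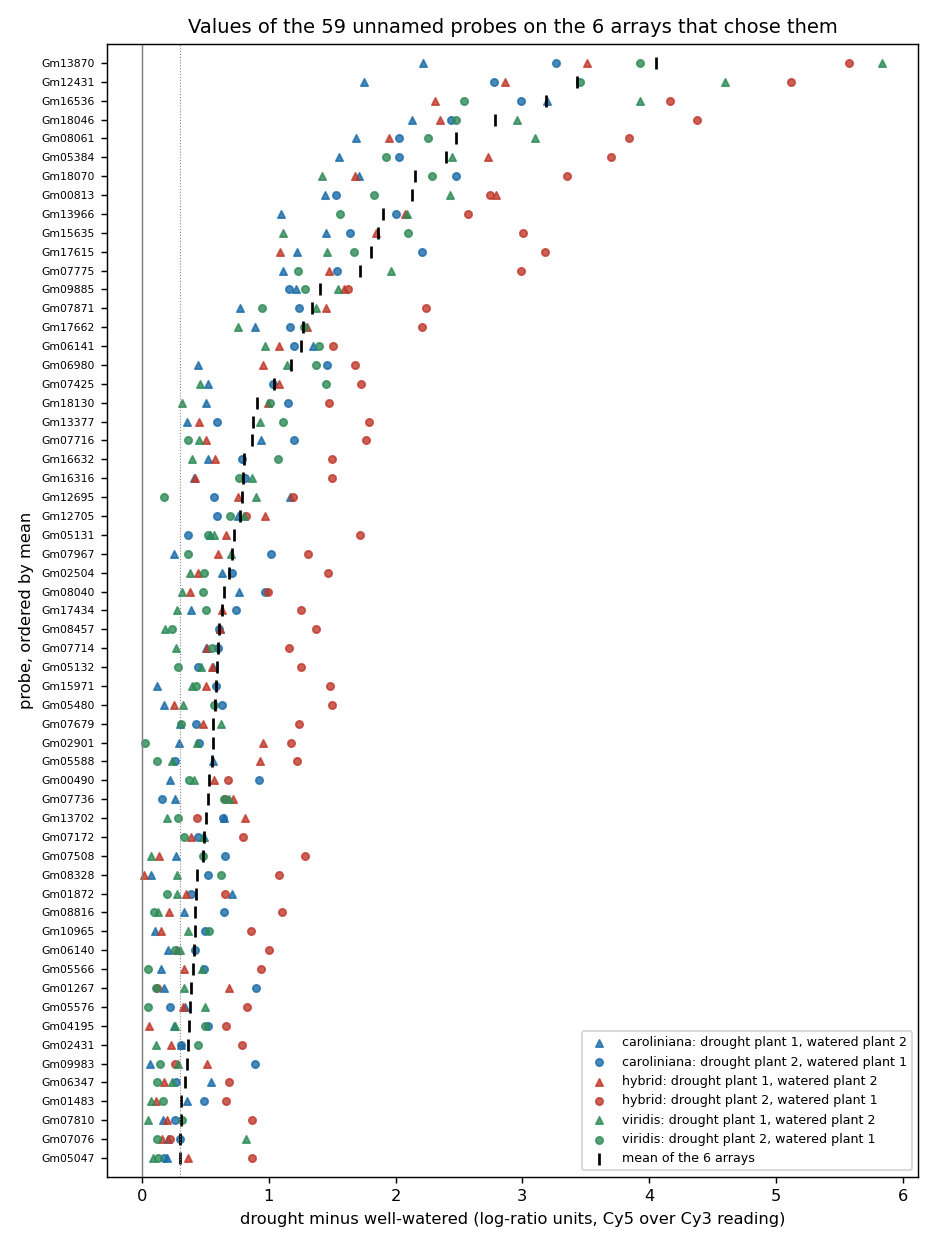
Drought minus well-watered log ratio (horizontal axis, log-ratio units) of each of the 59 probes (rows, ordered by mean) on the 6 arrays that chose them, with 1 point per array. The means run from 0.301 to 4.05, and 49 of the 59 probes have their highest value on the array of H2D and H1W.

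One hybrid array carried the highest values. The median over the 59 probes was 1.29 on H2D/H1W, against 0.516 on C1D/C2W, 0.657 on C2D/C1W, 0.598 on H1D/H2W, 0.466 on V1D/V2W and 0.501 on V2D/V1W. Over all probes with 6 values the array medians lay between -0.047 and -0.004. Of the 59 probes, 49 were highest on H2D/H1W and none was lowest there. The lowest value fell on C1D/C2W in 20 probes, on V1D/V2W in 18, on V2D/V1W in 13, and on each of C2D/C1W and H1D/H2W in 4.

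The 2 hybrid arrays differed from each other in this respect. The hybrid mean exceeded the mean of both parents in 57 of 59 probes, by a median of 0.359. Over all probes with 6 values it did so in 3436 of 7505. The rule used these same values, so the excess is a description and not an independent result. Taken alone, H2D/H1W exceeded the parents by a median of 0.788 (55 of 59 probes above 0), and H1D/H2W by 0.013 (30 of 59). The median morphotype means were 0.567 in caroliniana, 0.953 in hybrids and 0.447 in viridis, and caroliniana and viridis differed by a median of 0.030 (33 of 59 above 0). Gm05384 had the largest excess of hybrids over parents (1.23, with 3.21 in hybrids, 1.79 in caroliniana and 2.18 in viridis), followed by Gm00813 (0.96). Gm07076 had the smallest (-0.17), followed by Gm04195 (-0.03). The 62 unnamed probes inside the stretch that met the same criteria had morphotype medians of 0.863, 1.08 and 0.686 in the same order, and hybrids exceeded the parents in 60 of them by a median of 0.292.

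The values also differed with the dye orientation. On the arrays with the drought plant in Cy5 the 59 probes were higher than on those with it in Cy3 by a median of 0.310 (47 of 59 above 0), against -0.012 over all probes. The arrays with drought in Cy5 were C2D/C1W, H2D/H1W and V2D/V1W, whose medians were 0.657, 1.29 and 0.501. Those with drought in Cy3 were C1D/C2W, H1D/H2W and V1D/V2W, with medians of 0.516, 0.598 and 0.466. The 2 orientations hold different plants, so dye and plant cannot be told apart on these arrays. Each morphotype had 1 array of either orientation, so each morphotype mean holds both equally.

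Of the probes with a gene entry, 14 met the same criteria on the 6 arrays, 10 of them inside the stretch. CAB3 encodes an antenna protein that binds chlorophyll, and its probes were Gm06115 (mean 1.91 ± 0.42, SD, n = 6) and Gm05985 (1.81 ± 0.43). CHLH, the large subunit of magnesium chelatase in chlorophyll synthesis, was represented by Gm06139 (0.78 ± 0.31) and Gm06047 (0.65 ± 0.30), and PSAD, a subunit of photosystem I, by Gm06019 (0.32 ± 0.15). CYP98A2 (Gm08062, 0.91 ± 0.36) belongs to a cytochrome P450 family that hydroxylates phenylpropanoid esters, as known from Arabidopsis, and CAT5 (Gm03477, 0.69 ± 0.58) is a catalase, which removes hydrogen peroxide. The other probes had locus names only, LOC732655 (0.96), LOC547643 (0.51), LOC547820 (0.48), LOC548073 (0.44), LOC547605 on 2 probes (0.39 and 0.35) and LOC732565 (0.35). The 8 members with a mean of 2 or more all lay above the highest of these named probes.

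The probe numbers of the members ran from 490 to 18130 on an array numbered from 7 to 19200. They were not evenly spread. Of the eligible probes, which are unnamed with 6 values outside the stretch, 3.14% of 255 with numbers in the 5000s and 2.84% of 422 in the 7000s were members, and none were in the 3000s, 11000s and 14000s. Just beside the stretch, 3 of 46 eligible probes (6.52%) within 100 numbers below it and 2 of 35 (5.71%) within 100 above it were members. The nearest without a missing value were Gm05588 (mean 0.55) and Gm05566 (0.40) below, and Gm06140 (0.41) and Gm06141 (1.25) above.

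Probes with adjacent numbers were described with members left out. This takes positive probes out of the adjacent set but not out of all probes. The values below therefore cannot decide whether adjacent probes share the positive values. Of the 101 probes numbered 1 above or below a member and not members themselves, 86 had 6 values, with a median mean of -0.008, and 40.7% of them were above 0, against 39.1% of all probes. Of the 86, 2 met the criteria on the values, against 1.8% of all probes with 6 values. Both had gene entries, which the rule fixes, since an unnamed probe there would be a member. CYP98A2 (Gm08062) is numbered next to Gm08061, and CHLH (Gm06139) next to Gm06140. The pairs Gm05131 and Gm05132, and Gm06140 and Gm06141, were members with adjacent numbers.

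**Figure D2:**
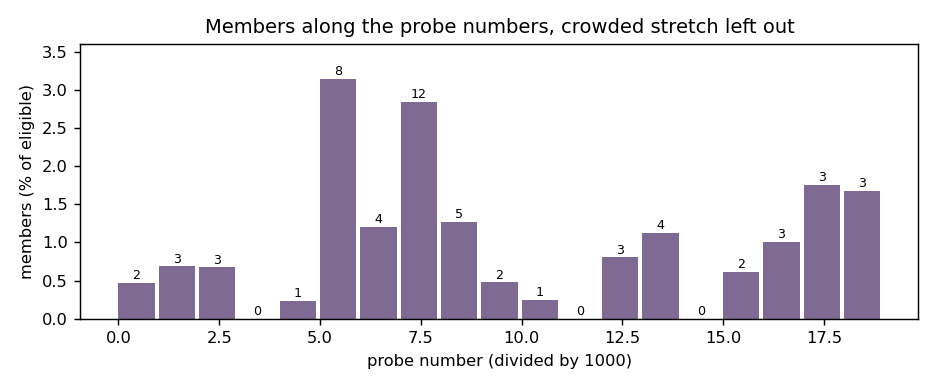
Share of members among eligible probes (vertical axis, percent) in bins of 1000 probe numbers (horizontal axis, divided by 1000), with the number of members above each bar and the crowded stretch left out. The bins of the 5000s (8 members) and 7000s (12 members) stand highest.

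The 12 arrays that pair plants of the same treatment were outside the choice, although most of their plants were also on the 6 arrays of the rule. On 3 of 4 hybrid arrays of each treatment the median of hybrid minus parent was above 0 under drought and below 0 in well-watered plants. The probes of an array share its error, so counts of probes describe that array and are not replicates. Under drought the hybrid was higher on 3 of 4 arrays, with a median of 0.345 for H2D minus V3D (41 of 59 probes above 0), 0.444 for H3D minus C1D (49 of 59) and 0.448 for H3D minus V3D (49 of 59). H1D minus C2D had a median of -0.024 (26 of 58 above 0). In well-watered plants the hybrid was lower on 3 of 4 arrays, with a median of -0.632 for H1W minus V3W (53 of 59 below 0), -0.581 for H3W minus C1W (48 of 56) and -0.550 for H3W minus C3W (56 of 59). H2W minus V3W went the other way, with a median of 0.556 and 56 of 58 probes above 0.

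Among all tested probes the share on the same side was smaller. It was 45.5% above 0 for H3D minus V3D, 40.6% below 0 for H1W minus V3W, 40.9% below 0 for H3W minus C3W and 41.6% above 0 for H2W minus V3W. The unnamed probes inside the stretch that met the same criteria showed the pattern too. Of these, 83.6% were above 0 for H2D minus V3D, 93.4% for H3D minus C1D and 82.3% for H3D minus V3D. Below 0 were 95.1% for H1W minus V3W, 87.1% for H3W minus C1W and 95.2% for H3W minus C3W. H2W minus V3W had 98.4% above 0 and H1D minus C2D 66.1%. The pattern was thus not particular to the 59 probes. None of the plants H3D, V3D, H3W and C3W was on an array of the rule, so the arrays H3D/V3D and H3W/C3W share neither array nor plant with the choice. Between the parents the medians were smaller in size than on the 7 hybrid arrays other than H1D minus C2D. They were 0.180 for C3D minus V1D (42 of 56 above 0), -0.050 for C3D minus V2D (24 of 59), 0.146 for C2W minus V1W (40 of 59) and 0.067 for C3W minus V2W (38 of 59).

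Probe by probe, the hybrid was above the parent on all 4 drought arrays in 16 of the 58 members with values there, against 8.31% of all probes. It was below the parent on all 3 well-watered arrays without H2W in 45 of 56 members, against 14.1% of all probes. With the array of H2W included this held on all 4 in 2 of 55 members, against 1.85% of all probes. Both patterns together, with the array of H2W left out, were seen in 12 of 55 members, against 3.84% of all probes. With that array they were seen in 0 of 54 members, against 0.264% of all probes.

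**Figure D3:**
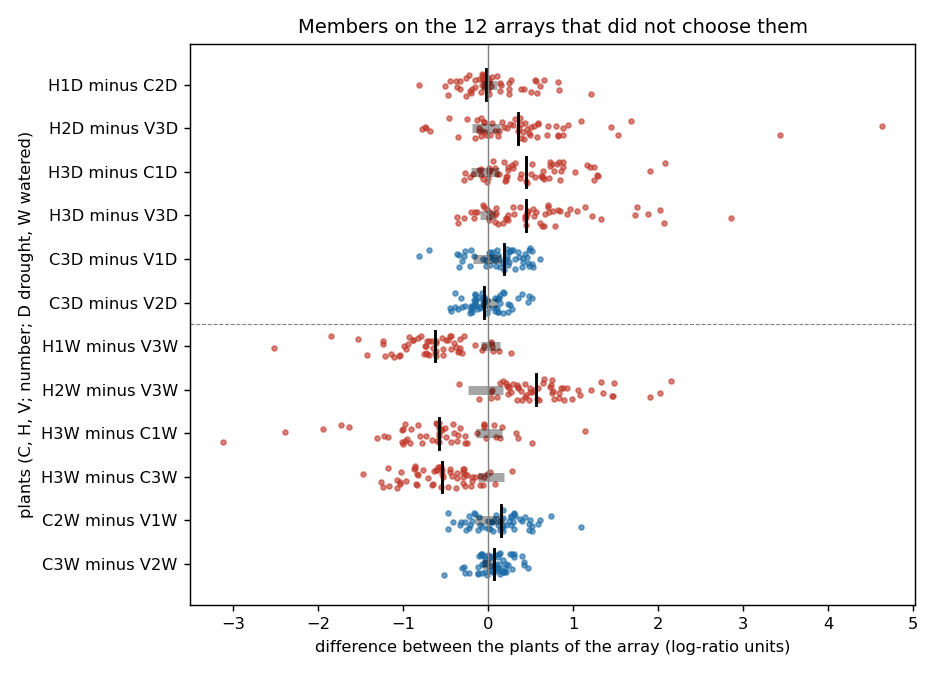
Difference between the plants of each of the 12 same-treatment arrays (horizontal axis, log-ratio units) for the 59 probes, with 1 point per probe, a black line at their median and a grey bar from the lower to the upper quartile of all tested probes. Hybrid minus parent is in red and caroliniana minus viridis in blue, and the array of H2W and V3W has a median of 0.556 where the other well-watered hybrid arrays lie from -0.632 to -0.550.

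The same arrays were fitted together, with the plant as a random effect and a dye term, over 7588 probes, and moderated with limma with Benjamini-Hochberg adjustment over all of them at a threshold of 0.05. With every plant included, no member was called in any comparison of morphotypes. For the hybrid against the mid-parent in well-watered plants, 0% of all probes were called. The members had a median of -0.27 with 49 of 59 below 0, against a median of 0.01 over all probes, and 13 members had an unadjusted p under 0.05 (22.0%, against 3.64% of all probes). Gm18130 had the smallest p (-0.81 ± 0.12, SE, limma adjusted p = 0.546), but it is the 1 member with no value on the array of H2W and V3W, so every estimate for it is one without H2W. Gm06141 followed (-0.47 ± 0.12, SE), with a value on that array.

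For the hybrid against the mid-parent under drought, 0.0132% of all probes were called. The members had a median of 0.28 with 48 of 59 above 0, against -0.03 over all probes, and 16 had an unadjusted p under 0.05 (27.1%, against 10.96%). Gm12431 had 2.01 ± 0.32 (SE, limma adjusted p = 0.153) and Gm13870 had 2.65 ± 0.45 (SE, limma adjusted p = 0.158). These 2 probes were higher on H2D minus V3D (3.43 and 4.63), H3D minus C1D (1.90 and 2.08) and H3D minus V3D (2.02 and 2.86) than on H1D minus C2D (0.83 and 1.21), and were positive on all 4.

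Averaged over treatments, 0% of all probes were called for the hybrid against the mid-parent, and 10 members (16.9%, against 6.66% of all probes) had an unadjusted p under 0.05. The estimates were 1.05 ± 0.22 (SE) for Gm12431 (limma adjusted p = 0.636) and -0.37 ± 0.08 for Gm18130. Between caroliniana and viridis, 0% of all probes were called averaged over treatments, 0.0527% in well-watered plants and 0% under drought, with 1, 2 and 0 members at an unadjusted p under 0.05. These are 1.69%, 3.39% and 0% of the members, below the 6.88%, 6.55% and 2.20% of all probes. The members with the smallest p were Gm06140 (0.26 ± 0.12, SE) and Gm06980 (0.35 ± 0.17) averaged over treatments, Gm18130 (-0.37 ± 0.13) and Gm06980 (0.67 ± 0.23) in well-watered plants, and Gm06347 (0.18 ± 0.10) and Gm08328 (0.26 ± 0.16) under drought. Their limma adjusted p was 0.685, 0.732 and 0.99998 in these comparisons.

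Whether the morphotype differences changed with treatment was tested as an interaction with 2 degrees of freedom. With every plant, 0% of all probes were called, and 15 members (25.4%, against 3.94% of all probes) had an unadjusted p under 0.05, with Gm18130, which has no value for H2W, and Gm00813 the smallest (limma adjusted p = 0.944). The part that sets hybrid against mid-parent under drought minus the same in well-watered plants called 0% of all probes. Its median over the members was 0.65, with 56 of 59 above 0, against -0.04 over all probes.

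Without H2W, the fit held 11 arrays and 7601 probes, and members were called. The array left out is the 1 on which these same probes went the other way, so the calls are not independent of their values. The well-watered hybrids then rest on H1W and H3W. For hybrid against mid-parent in well-watered plants the members' median SE was 0.144, against 0.209 with every plant. In well-watered plants 14 of the 59 were lower in hybrids than the mid-parent and none higher, against 0.553% of all probes called lower, and the members' median was -0.62 with 54 of 59 below 0. Gm18070 was the lowest, with -2.52 on H1W minus V3W, -1.31 on H3W minus C1W and -1.47 on H3W minus C3W, while H2W minus V3W gave 0.24. Its estimate was -1.76 ± 0.19 (SE, limma adjusted p = 0.0095 without H2W), against -1.25 ± 0.32 with every plant. Gm15635 was at -1.69 ± 0.19 and Gm16316 at -0.75 ± 0.10, followed by Gm07716 (-1.08 ± 0.15), Gm05480 (-0.79 ± 0.11) and Gm08457 (-0.90 ± 0.13). For Gm16316 the well-watered arrays gave -0.83, -0.58 and -1.24, and the array of H2W gave 1.47, so the call rests on leaving it out.

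Under drought the members' median was 0.28 both with and without H2W, and their median SE was 0.208 with it and 0.124 without it. H2W is on none of the drought arrays of this fit, so leaving it out changed mainly the SE. The calls below came with that smaller SE and are not independent of the values of the array left out, so their p-values may be too small. Without H2W 4 members were called, all higher in hybrids, against 0.105% of all probes. They were Gm13377 (0.74 ± 0.09, SE), Gm16316 (0.66 ± 0.09), Gm00813 (1.20 ± 0.16) and Gm05384 (1.28 ± 0.17), each with a limma adjusted p of 0.0281. Gm05384 had 0.60 on H1D minus C2D, 1.44 on H2D minus V3D, 1.19 on H3D minus C1D and 2.07 on H3D minus V3D. The interaction called 7 members, against 0.21% of all probes. The difference between treatments in hybrid minus mid-parent called 24 members, all above 0, against 1.3% of all probes, and its median was 0.96. The 62 unnamed probes inside the stretch had 8 called in well-watered plants, with a median of -0.37, and 19 called for the difference between treatments.

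All plants numbered 1 and 2, H1W and H2D among them, were on the arrays of the rule and also enter these fits, so the choice of the probes and the tests share plants. When the probes were chosen on 5 arrays without H2D/H1W, 53 probes resulted. Without H2W 13 of them were called lower in well-watered hybrids, with a median of -0.65, against 0.553% of all probes called lower. All members have values above 0 on these 5 arrays, so the lists overlap and the count is no separate support.

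**Figure D4:**
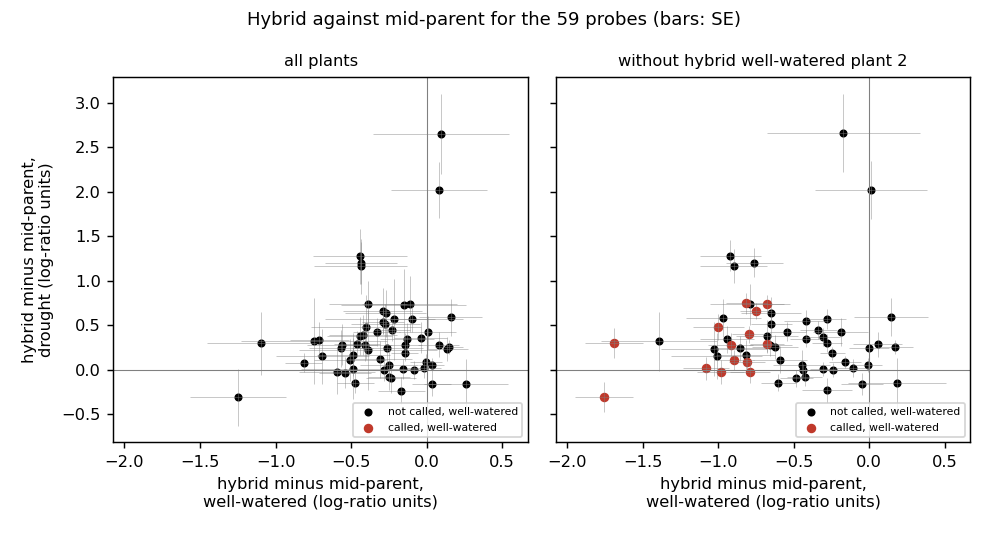
Hybrid minus mid-parent under drought (vertical axis) against the same in well-watered plants (horizontal axis), both in log-ratio units with SE bars, for the 59 probes with every plant (left) and without H2W (right). Red marks the members called in well-watered plants, 0 on the left and 14 on the right.

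A dye term common to all arrays was called for 12 members, 2 above 0 and 10 below, against 15.5% of all probes above and 11.4% below. Its median over the members was -0.16, with 48 of 59 below 0, against 39.5% of all probes. That sign is opposite to the difference of 0.310 between dye orientations on the 6 arrays of the rule. None of the 12 calls held with the plant number as a replicate block or with the sign of the array of H2W and V3W turned, settings under which 0 of all probes were called. Gm02431 (-0.26 ± 0.04, SE, limma adjusted p = 0.00234) and Gm18130 (0.30 ± 0.06) had the smallest p, followed by Gm06347 (-0.25 ± 0.05), Gm05566 (-0.28 ± 0.06), Gm08816 (-0.38 ± 0.08) and Gm07076 (-0.19 ± 0.04).

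Values for each plant were solved from the loop of 18 arrays for the 51 members without a missing value. They use the 6 arrays of the rule and carry array error along the loop, so they are a description. For Gm12431 the 9 drought plants ran from -0.01 through a median of 1.72 to 3.35 and the 9 well-watered plants from -2.05 through -1.72 to -1.07, without overlap. Gm16536 ran from 0.79 through 1.67 to 2.28 under drought and from -3.22 through -1.43 to -0.17 when watered, also apart. Gm13870 ran from -0.91 through 2.19 to 3.48 and from -2.35 through -2.04 to -0.60, and its groups overlapped.

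In 12 of the 51 members all drought plants lay above all well-watered plants, against 0.708% of all probes with 18 values, a comparison in which the rule had a part. In the other 39 the groups overlapped. H2W was the highest well-watered plant in 29 members and lay above both other well-watered hybrids in 48. The lowest drought plant was V3D in 17 members, V1D in 14, C1D in 10 and H2D in 8. The plants numbered 3, which the rule did not use directly, had a median drought minus well-watered difference of 0.759, above 0 in all 51 members with a lowest value of 0.192, against 0.604 for plants 1 and 2. These differences reach plants 3 only through the arrays of the rule, where every value was above 0 by choice. Their sign is therefore no separate support.

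**Figure D5:**
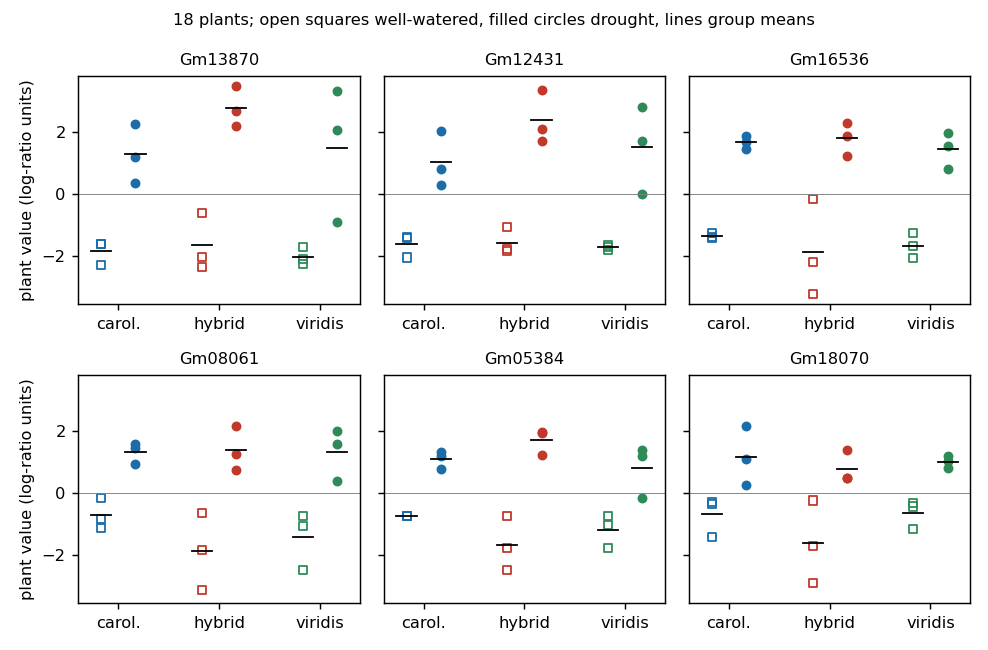
Value of each of the 18 plants (vertical axis, log-ratio units, centred on 0) for 6 members by morphotype, with open squares for well-watered plants, filled circles for drought plants and lines at group means. For Gm12431 and Gm16536 the drought plants lie above all well-watered plants, and for Gm13870 they overlap.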

How the data were processed

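Leaf RNA was compared on 18 two-colour arrays. The deposited values are log ratios per probe (handled on a log2 scale as the usual base, though neither base nor direction is given in the sources used here), as normalised by the authors with a method not given in the sources used here. No missing value was imputed and no array was rescaled. In the supplied table of gene symbols, 552 of 9600 probes had an entry, 546 with 1 symbol and 6 with several. The probes, lists and tests were chosen with earlier results of these data known.

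Drought values were described and not tested. The 12 same-treatment arrays were fitted by generalised least squares with random plant effects and a common dye term (variance ratio 0.25 by restricted maximum likelihood), for probes with values on at least 10 arrays, and moderated with limma 3.58.1 in R 4.3.3. The fit had 5 terms and 7 residual degrees of freedom. Without H2W it held 11 arrays, with 6 residual degrees of freedom and a variance ratio of 0.2. Tests were two-sided (F for the interaction), with Benjamini-Hochberg adjustment over all probes. The procedure was tested on simulated data only for a difference between caroliniana and viridis on the 12 arrays. The hybrid comparisons, the interaction and the fit without H2W were not simulated. Of the members, 51 had all 12 values and 8 had 11. The contrast of hybrid against mid-parent between treatments, the choice on 5 arrays and the turned sign of 1 array were added after seeing the data.

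Probes named are the 10 with the largest means, the called members with the smallest p (at most 6) or else 2 per comparison, 3 on each side of the threshold, 2 at each extreme of SD and of hybrid excess, and 2 on each side of the stretch. Other probes named were chosen after their values were seen. Signal over background was not analysed here, and the number of arrays limits the precision.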

Additional observations from a re-analysis of the deposited data

Results flagged for a closer look

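The drought effect of 7 members differed between morphotypes by the interaction test when H2W was left out, and none did with every plant included. Limma adjusted p was 0.0109 for Gm16316 and for Gm13377. It was 0.0306 for Gm05131, Gm05384, Gm05480, Gm00813 and Gm15635. Hybrid minus mid-parent under drought exceeded that in well-watered plants by 1.41 ± 0.14 (SE) in Gm16316, 1.42 ± 0.14 in Gm13377, 1.56 ± 0.18 in Gm05131, 2.20 ± 0.27 in Gm05384, 1.19 ± 0.15 in Gm05480, 1.96 ± 0.25 in Gm00813 and 1.99 ± 0.25 in Gm15635. With every plant, the same difference was 0.95 ± 0.37 in Gm16316, 0.85 ± 0.44 in Gm13377 and 1.39 ± 0.51 in Gm15635, each with a limma adjusted p of 0.692. All 7 rest on the removal of 1 array, and the part of that array in the difference was not tested further.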

How the results depend on the processing

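The rule gave 59 probes, 75 with a mean of 0.20 or more, 49 with 0.40 or more, 67 after centring the arrays, 72 after scaling, 54 with the stretch widened by 100 numbers on each side, and 53 to 80 with 1 array left out. Counts of called members are given from here, with those over all probes tested in brackets. Without the array of H2W and V3W, 14 (44) were called for hybrid against mid-parent in well-watered plants, 4 (8) under drought, 7 (16) in the interaction and 24 (99) for the difference between treatments, where every plant gave 0. With the sign of that array turned, chosen after seeing the data, they were 27 (191), 3 (5), 21 (84) and 34 (582), and the dye term called 0 (0) in place of 12 (2042). Without H2W and V3D they were 9 (35) in well-watered plants, 3 (10) in the interaction and 10 (63) for the difference between treatments. Scaling gave 1 (6) under drought and 7 (1408) for the dye term, and complete probes 7 (952) for the dye term. All 18 arrays gave 1 (1) in well-watered plants and 6 (2354) for the dye term, but that fit holds the 6 arrays that chose the members, so its calls are no test of them. Leaving out 1 plant at a time gave 0 to 14 in well-watered hybrids, 0 to 5 under drought, 0 to 2 averaged over treatments, 0 to 1 for caroliniana against viridis in well-watered plants, 0 to 7 in the interaction, 0 to 24 for the difference between treatments and 7 to 22 for the dye term. The highest values came without H2W, except 5 (10) under drought without V3W, 2 (8) averaged without C3D, 1 (7) without H3D and 22 (2408) without C1W. Of the other plants, leaving out V3W gave 2 (3) in the interaction and 7 (20) for the difference between treatments. C3D gave 2 (12) under drought, 1 (3) in the interaction and 2 (6) for the difference, V1D gave 1 (1) averaged, 2 (10) under drought and 1 (2) for the difference, and for the dye term C1D gave 7 (1393) and C3W 7 (1044). Same-numbered plants did not deviate together as a rule (median r = -0.102 over 45 pairs, from -0.696 to 0.617, 13 over 0.1, against -0.022 over 90 pairs of different numbers). Plants on 1 array share its error, and the drought arrays join different numbers. These correlations therefore cannot decide whether the numbers pair the plants. With the replicate block 0 members were called in every comparison, the dye term included. The cause of these changes was not tested.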
